A study of Arabidopsis thaliana with 18 samples.

Results

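ZAT and AZF genes of Arabidopsis thaliana encode small transcription factors with a pair of C2H2 zinc fingers. The 10 genes described here were ZAT6 (AT5G04340), ZAT7 (AT3G46090), ZAT8 (AT3G46080), ZAT10 (AT1G27730), ZAT11 (AT2G37430), ZAT12 (AT5G59820), ZAT18 (AT3G53600), AZF1 (AT5G67450), AZF2 (AT3G19580) and AZF3 (AT5G43170). They were chosen by gene ID from the 33039 genes of the deposited table, and all 18 samples were read. Each sample was the aboveground part of wild-type Col-0 seedlings. At an age of 9 days the seedlings were placed with the root endophyte Serendipita indica (Si) or left without it (CK), and harvest followed 7 days later after growth at 22, 25 or 28°C. Each of the 6 groups held 3 biological replicates. All groups had grown at 22°C before that time, with equal hours of light and dark throughout, and the fungus colonizes the root, which was not sampled. How many seedlings went into a sample is not given in the sources used here. Values are in TPM, which scales reads by gene length and by the total of the sample. TPM keeps no read depth, so the counting error of a value is unknown.

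In these proteins each finger carries the letters QALGGH in the helix that reads DNA, and many members also hold an EAR motif, a short stretch through which plant repressors recruit co-repressors. Their transcripts are known to rise within minutes to hours of wounding, cold, salt, drought, intense light, reactive oxygen and microbial elicitors, and to fall again soon after. The proteins mostly act as repressors that adjust the further stress response, and overexpression or loss of single members changes the tolerance of Arabidopsis to salt, drought, cold or oxidative stress.

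The annotation of the TAIR10.1 assembly from RefSeq gave 1 exon for the listed transcript of all 10 genes, and the gene lengths in the table equal the annotated transcript lengths for 10 of 10. Translated from that sequence, every coding region held 2 QALGGH stretches. The letters DLN followed by any 2 residues and P, 1 form of the EAR motif, were found in ZAT6, ZAT10, ZAT11, ZAT18 and AZF3. The letters of the other form, LxLxL with x for any residue, were found in ZAT6, ZAT7, ZAT11, ZAT12, ZAT18, AZF1 and AZF2. In ZAT6, AZF1 and AZF2 they lay ahead of the first finger, from residues 54, 64 and 71. In the others they lay behind both fingers. Whether a match of letters acts as an EAR motif was not tested. ZAT8 held neither form. The stretches below show how closely the fingers resemble each other where it matters for telling the transcripts apart. They are the codons of the first finger helix on the coding strand, with the 18 bases that encode QALGGH in capitals.
ZAT7: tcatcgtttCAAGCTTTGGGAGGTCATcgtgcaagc
ZAT8: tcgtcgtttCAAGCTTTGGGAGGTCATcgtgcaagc
ZAT6: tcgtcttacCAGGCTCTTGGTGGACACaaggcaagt
ZAT10: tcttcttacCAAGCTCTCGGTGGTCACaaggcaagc
The 18 bases of the finger in ZAT7 and ZAT8 were the same, whereas those of ZAT6 and ZAT10 differed from each other. Among the 20 fingers of the family, no 18-base stretch occurred more than 2 times.

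ZAT7 and ZAT8 lie close to each other on the minus strand of chromosome 3, at chr3:16925881-16926883 and chr3:16922514-16923299, 2581 bases apart with 1 annotated gene between them. Their coding sequences were 93.6% identical over 486 aligned bases, and the longest run shared by both transcripts was 44 bases. Reads from these genes could therefore be divided between them by the authors' quantification, so the split of TPM between ZAT7 and ZAT8 is uncertain. The next most similar pair was ZAT6 (chr5:1216058-1217362, minus strand) and ZAT10 (chr1:9648021-9649323, minus strand), with 79.6% identity. AZF3 (chr5:17330945-17331646, minus strand) overlaps AT5G43160 on the opposite strand by 408 bases. The labels mention an orientation mode for the mapping but not for the quantification. Reads of these overlapping genes may therefore not have been kept apart.

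The 250 bases before the annotated transcript start are shown for ZAT7 and ZAT8, whose values at 28°C differed in direction, and for ZAT11, ZAT12 and ZAT18, which moved together. Capitals mark TTGAC (the core of the W box that WRKY factors bind, GTCAA on the other strand), CGCG (the core bound by calmodulin-binding CAMTA factors) and GAANNTTC (a pair of heat shock element units). They run from 5′ to 3′ on the strand of the gene.
ZAT7 (chr3:16926884-16927133, minus strand): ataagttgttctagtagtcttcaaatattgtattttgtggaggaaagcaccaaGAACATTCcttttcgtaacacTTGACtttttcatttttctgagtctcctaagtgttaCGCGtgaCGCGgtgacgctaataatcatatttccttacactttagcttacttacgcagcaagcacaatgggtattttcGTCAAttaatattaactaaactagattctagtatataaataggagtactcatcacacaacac
ZAT8 (chr3:16923300-16923549, minus strand): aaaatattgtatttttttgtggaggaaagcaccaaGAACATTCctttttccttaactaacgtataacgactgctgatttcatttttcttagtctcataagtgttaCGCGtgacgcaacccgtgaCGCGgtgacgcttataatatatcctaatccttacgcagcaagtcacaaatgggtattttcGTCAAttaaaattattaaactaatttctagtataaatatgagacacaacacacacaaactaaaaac
ZAT11 (chr2:15706035-15706284, plus strand): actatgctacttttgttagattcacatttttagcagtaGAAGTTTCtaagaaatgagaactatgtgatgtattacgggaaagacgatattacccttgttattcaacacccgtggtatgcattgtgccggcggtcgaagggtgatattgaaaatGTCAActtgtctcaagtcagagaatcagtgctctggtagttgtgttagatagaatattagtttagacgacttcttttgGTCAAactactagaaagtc
ZAT12 (chr5:24102564-24102813, plus strand): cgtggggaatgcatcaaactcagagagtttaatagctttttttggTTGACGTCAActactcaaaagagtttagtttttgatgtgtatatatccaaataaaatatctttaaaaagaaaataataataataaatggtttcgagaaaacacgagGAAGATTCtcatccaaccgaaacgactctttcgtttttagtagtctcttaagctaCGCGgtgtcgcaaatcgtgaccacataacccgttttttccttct
ZAT18 (chr3:19875125-19875374, plus strand): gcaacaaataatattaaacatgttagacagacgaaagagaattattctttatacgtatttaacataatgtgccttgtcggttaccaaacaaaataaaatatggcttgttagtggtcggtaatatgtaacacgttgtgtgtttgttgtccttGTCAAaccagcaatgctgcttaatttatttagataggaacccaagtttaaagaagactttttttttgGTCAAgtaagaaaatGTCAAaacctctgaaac
Searched on both strands, TTGAC was in this window of 8 of the 10 genes, against 44.9% of 27443 protein-coding genes. GAANNTTC was in 5 of the 10 (ZAT6, ZAT7, ZAT8, ZAT11 and ZAT12) against 9.55%, and CGCG was in 3 (ZAT7, ZAT8 and ZAT12) against 10.1%. CCGAC, the core of the drought and cold element, was in 4 (ZAT6, ZAT10, ZAT18 and AZF2) against 12%. GCCGCC, the element of ethylene response factors, was in ZAT6 and ZAT10 against 1.87%. ACGTG, the core of ABA-responsive elements, was in ZAT10 and ZAT18 against 22.9%. The longer CGCGTT and CACGTG, which contain CGCG and ACGTG, were in 0 of the 10 windows, against 2.59% and 6.49%. These are matches of letters in 1 window and say nothing of factors bound there.

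The samples matched their label as shoots. The 5 shoot markers (RBCS1A, CAB1, CA1, GPRI1 and RCA, genes of photosynthesis) summed to between 23021 and 44618 TPM, whereas 9 root markers summed to between 2.39 and 9.96 TPM. The root hair genes SHV2, EXPA7, EXPA18 and RHD6 were listed at 0 in 9 to 14 of the 18 samples and the iron transporter IRT1 in 15, and MYB36 of the endodermis in 1. CASP1, also of the endodermis, and the nitrate transporter NRT2:1 were at 0 in no sample and reached 6.73 and 7.47 TPM. NRT2:1 was higher in Si at 25°C (1.41 ± 0.19) and 28°C (2.03 ± 0.19 log2 units), and CASP1 was lower in Si at 28°C (-1.29 ± 0.23), all called in limma. The part of root tissue in the values of the zinc finger genes was not tested. All 10 zinc finger genes passed the filter on low values, at least 1 TPM in at least 3 samples, as did 20044 genes in all. ZAT18 reached 1 TPM in 6 samples, all of them Si samples, and so passed only through the groups in which it was high. ZAT11 reached 1 TPM in 11 samples, 9 of them Si. Calls on these genes are therefore partly built into the filter, and no count over the 10 genes is independent of it.

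By their mean TPM over the 18 samples, ZAT10 was the most abundant at 95.8, followed by ZAT6 at 41.1 and ZAT12 at 14.2. AZF3 (11.3), AZF2 (9.65), ZAT7 (6.68), ZAT8 (5.53), ZAT11 (4.01), AZF1 (2.71) and ZAT18 (2.62) came next. TPM is scaled by length, so these levels can be set beside each other. ZAT10 had the highest and ZAT6 the second highest mean in each of the 6 groups, but below them the order depended on the group. In CK at 22°C, for example, ZAT7 (8.3 ± 1.7, SD, n = 3) was above AZF2 (7.10 ± 1.35) by less than their spread and above AZF3 (5.74 ± 0.27). The mean of AZF1 was above that of ZAT11 in the 3 CK groups and below it in the 3 Si groups.

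**Figure D1:**
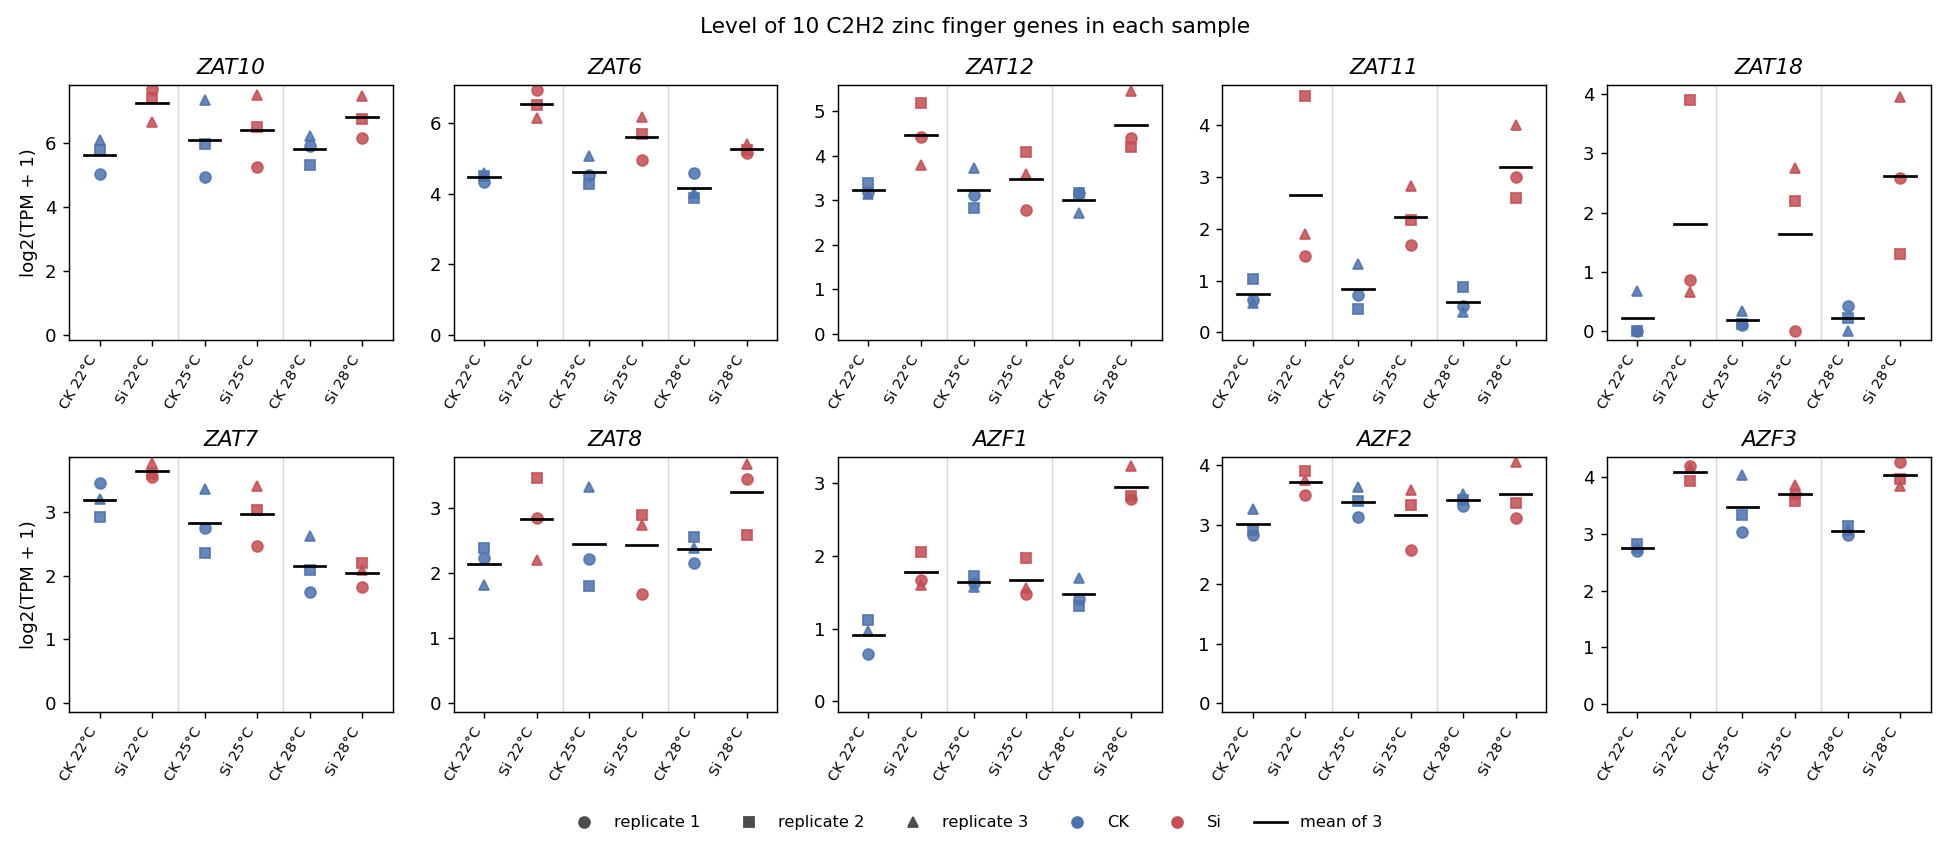
Level of each gene as log2(TPM + 1) in each of the 18 samples, with blue points for CK, red points for Si, marker shapes for replicate numbers and black lines for the means of 3. Si values stood above CK values for most genes at 22°C and 28°C, whereas at 25°C the groups overlapped for all genes except ZAT11. By limma's adjusted p alone, 47.4%, 47.8% and 43.5% of all genes tested were higher in Si at 22, 25 and 28°C. These shares are a different measure from the separation of groups, which was not counted over all genes. Whether the family separated more often than other genes was therefore not tested.

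The first comparison asked how the fungus in the root changed these transcripts in the shoot at 22°C. Of the 10 genes, 5 rose (ZAT6, ZAT10, ZAT11, ZAT12 and AZF3) and 0 fell, where a call required limma's adjusted p to be 0.05 or less and an absolute log2 fold change above 1. Of all genes tested, 8% were called up in this comparison. Values were positive for 10 of the 10 and for 74.0% of all genes tested. The median log2 fold change was 1.29 against 0.26 over all genes tested. With the adjusted p alone, 7 of the 10 were higher in Si, and so were 47.4% of all genes. With samples rescaled by median of ratios 3 of the 10 were called (ZAT10 and ZAT12 lost), and with quantiles 2 (AZF3 lost as well). Of all 20044 genes tested, 987 and 785 were called up under these rescalings, against 1603 as deposited. ZAT10 was also lost with no filter on low values (adjusted p = 0.072), and ZAT11 when only the compared groups were fitted (0.083). In whole shoots, more cells of a type and more RNA per cell cannot be told apart.

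ZAT6, known in Arabidopsis for roles in cold, cadmium and phosphate responses, changed with the smallest p of the family at 22°C. Its TPM was 19.1, 21.6 and 23.2 in CK and 122, 91.4 and 69.8 in Si. Every Si sample was far above the highest CK sample. The log2 fold change was 2.06 ± 0.28 (SE) with an adjusted p of 2.0e-05 in limma, and it was called in each alternative run.

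ZAT10, also named STZ for salt tolerance zinc finger, is a repressor that responds to salt, drought and intense light. It had 32.1, 54.0 and 68.4 TPM in CK and 206, 171 and 101 in Si at 22°C. All Si values were above all CK values, but both groups ranged about as widely within themselves. The log2 fold change of 1.62 ± 0.59 had an adjusted p of 0.028 in limma. This call was lost without CK replicate 1 (adjusted p = 0.10), CK replicate 2 (0.052), Si replicate 1 (0.092) or Si replicate 2 (0.070) at 22°C.

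ZAT12, also named RHL41 for its response to high light, takes part in the signalling of reactive oxygen. ZAT12 was at 8.04, 9.49 and 7.75 TPM in CK and at 20.5, 35.7 and 12.8 in Si. The groups did not overlap, and the Si samples spread far more widely than the CK samples. Its log2 fold change was 1.24 ± 0.39 (adjusted p = 0.013, limma), and without Si replicate 2 it was 0.88 with an adjusted p of 0.073.

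ZAT11, known for a part in primary root growth and nickel tolerance, was close to the detection limit in CK at 0.55, 1.05 and 0.49 TPM. The Si samples had 1.77, 22.7 and 2.75 TPM, so that 1 sample, Si replicate 2, held most of the signal. Its log2 fold change of 1.90 ± 0.60 (adjusted p = 0.013, limma) became 0.94 without that sample, with an adjusted p of 0.057.

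ZAT18, which in Arabidopsis promotes drought tolerance, stood out in the same sample. The table listed it at 0, 0 and 0.61 TPM in CK and at 0.82, 14.0 and 0.59 in Si at 22°C. The groups overlapped and the gene was not called (log2 fold change 1.58 ± 0.81, adjusted p = 0.11, limma).

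AZF3 rose with little spread. It had 5.49, 6.03 and 5.70 TPM in CK and 17.4, 14.3 and 16.8 in Si, with a wide gap between the groups. In limma this was a log2 fold change of 1.35 ± 0.19 (adjusted p = 2.2e-05). AT5G43160, which overlaps AZF3 on the other strand, was at 1.86 to 2.41 TPM in these CK samples and 4.53 to 4.63 in Si. Its part in the value of AZF3 was not tested.

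AZF1 and AZF2, which in Arabidopsis repress genes under osmotic stress and respond to salt and the hormone ABA, passed the adjusted p but not the threshold on the fold change at 22°C. AZF1 had 0.57, 1.16 and 0.95 TPM in CK and 2.18, 3.16 and 2.03 in Si (log2 fold change 0.87 ± 0.18, adjusted p = 0.00068, limma). AZF2 had 6.13, 6.52 and 8.64 in CK and 10.3, 14.0 and 12.5 in Si (0.72 ± 0.25, adjusted p = 0.024, limma). For both genes the groups did not overlap. ZAT7, a salt-responsive repressor, and its neighbour ZAT8 did not pass, with log2 fold changes of 0.44 ± 0.27 and 0.69 ± 0.42 (adjusted p = 0.18 and 0.17, limma).

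**Figure D2:**
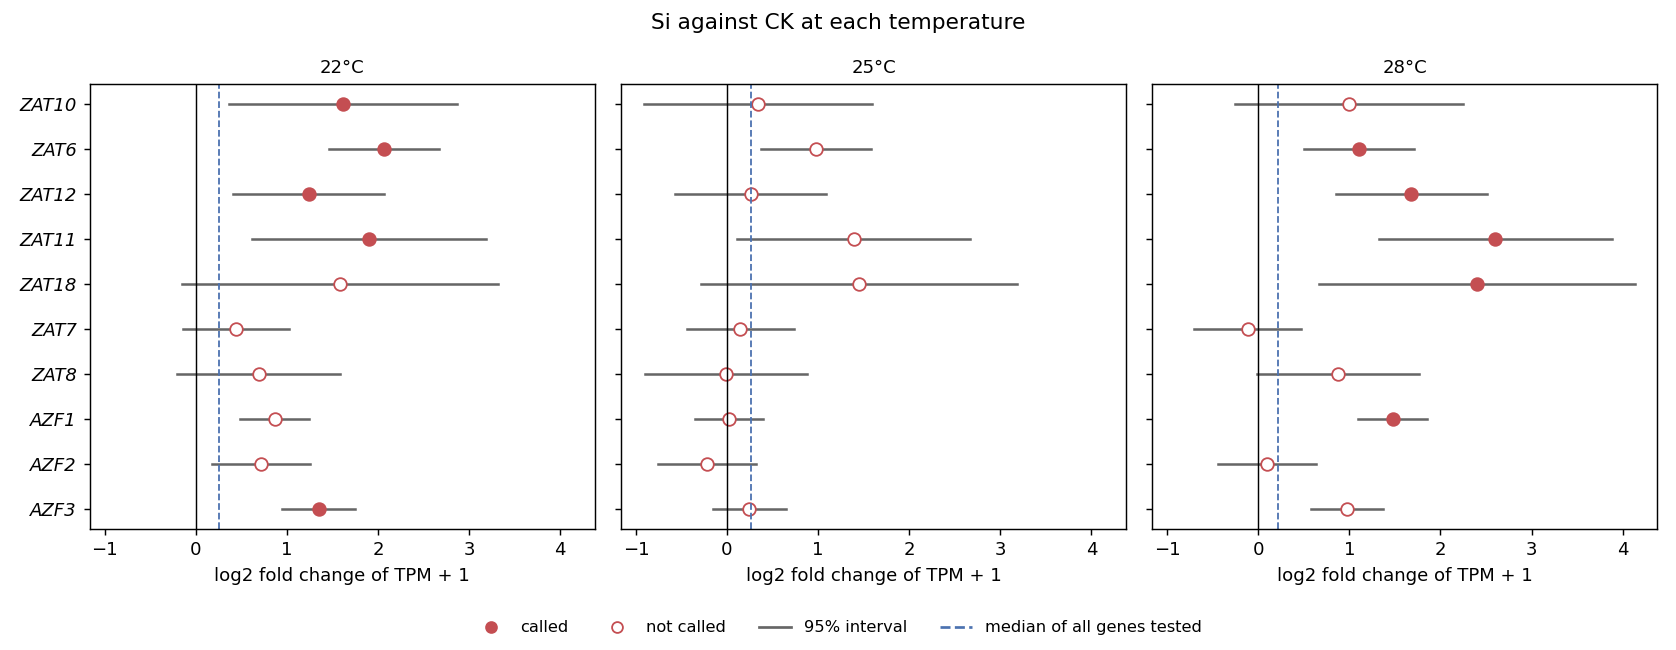
Log2 fold change of Si against CK on the log2(TPM + 1) scale at 22, 25 and 28°C for each gene, with bars for the 95% interval, filled points for called genes and a dashed line for the median of all genes tested. The 5 called genes at 22°C lie between 1.24 and 2.06, no gene is called at 25°C, and the 5 called at 28°C lie between 1.11 and 2.60.

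At 25°C, 0 of the 10 genes were called in limma, against 9.43% of all genes called up. Unadjusted p was under 0.05 for 2 of the 10 (ZAT6 and ZAT11), and the adjusted p alone was passed by 1, ZAT6, against 47.8% of all genes. The median log2 fold change of the family was 0.25, as for all genes tested (0.26). On rescaling the samples by median of ratios or by quantiles, the values of ZAT7, ZAT12, AZF1 and AZF3 changed from positive to negative.

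ZAT6 had 22.0, 18.5 and 32.9 TPM in CK and 29.9, 51.0 and 71.8 in Si at 25°C. The lowest Si sample lay below the highest CK sample. Its log2 fold change was 0.98 ± 0.28 (adjusted p = 0.0072, limma), just under the threshold of 1, and it was 1.31 without Si replicate 1 and 1.21 without CK replicate 3. ZAT11, at 0.64, 0.37 and 1.51 TPM in CK and 2.21, 3.48 and 6.05 in Si, was the gene whose groups did not overlap (1.39 ± 0.60, adjusted p = 0.057, limma). Its spread was estimated over all 6 groups, including Si replicate 2 at 22°C. Without that sample the adjusted p at 25°C was 0.0033 in limma, and with only the 25°C groups fitted 0.013. ZAT11 was called at 25°C in 6 of 26 alternatives. ZAT18, at 0.08, 0.09 and 0.27 TPM in CK and 0, 3.56 and 5.73 in Si, was not called (1.45 ± 0.81, adjusted p = 0.13, limma). Without Si replicate 1, ZAT6, ZAT11 and ZAT18 were all called.

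ZAT10 showed the width of the groups at 25°C. It ranged from 30.2 over 61.7 to 162 TPM in CK and from 37.9 over 90.7 to 180.45 in Si. Both groups covered nearly the same span, and the 95% interval of the log2 fold change ran from -0.91 to 1.59. The intervals of AZF1 (-0.36 to 0.40), AZF3 (-0.15 to 0.64) and AZF2 (-0.76 to 0.32) were narrower, so a fold change of 1 on the log2 scale lay outside them. The interval of ZAT7 (-0.44 to 0.73) and that of ZAT8 (-0.90 to 0.88) did not reach 1 either. Those of ZAT12 (-0.57 to 1.09), ZAT6, ZAT10, ZAT11 and ZAT18 held it.

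At 28°C, 5 of the 10 genes rose in Si (ZAT6, ZAT11, ZAT12, ZAT18 and AZF1) and 0 fell, against 7.95% of all genes called up. ZAT18 is among the 5 although it passed the filter only through Si samples. Without the filter it was not called, and the count was 4. The median log2 fold change of the family was 1.05, against 0.22 over all genes tested. With the adjusted p alone 6 of the 10 were higher, AZF3 being the one added, and so were 43.5% of all genes. ZAT6, ZAT11 and ZAT12 were called at both 22 and 28°C. With samples rescaled by median of ratios 4 of the 10 were called at 28°C (ZAT6 lost), and with quantiles 3 (ZAT18 lost as well). Of all 20044 genes tested, 1035 and 905 were called up under these rescalings, against 1593 as deposited.

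AZF1 had the smallest p of the family at 28°C. It was at 1.65, 1.48 and 2.24 TPM in CK and at 5.88, 6.09 and 8.36 in Si. The lowest Si value was more than the whole CK range above the highest CK value. Its log2 fold change of 1.47 ± 0.18 (adjusted p = 6.7e-06, limma) was called in each alternative run, and ranged from 1.10 to 1.87 over them.

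ZAT11 had 0.42, 0.83 and 0.32 TPM in CK and 6.95, 5.01 and 15.1 in Si at 28°C. Each Si sample was far above the CK samples. Si exceeded CK by a log2 fold change of 2.60 ± 0.60 (adjusted p = 0.0019, limma). ZAT12 likewise separated the groups, with 7.93, 7.92 and 5.53 TPM in CK and 20.1, 17.5 and 42.9 in Si (1.68 ± 0.39, adjusted p = 0.0019, limma). Both calls held in each alternative run.

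ZAT18 was listed at 0.35, 0.17 and 0 TPM in CK and at 4.99, 1.48 and 14.5 in Si at 28°C. Every Si sample was above every CK sample, but the Si samples also ranged widely among themselves. The log2 fold change of 2.40 ± 0.81 had an adjusted p of 0.021 in limma, which was 0.055 without CK replicate 3 and 0.11 without Si replicate 3. It was 0.053 with no filter on low values, the filter that ZAT18 had passed only through Si samples.

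ZAT6 rose less at 28°C than at 22°C in value, from 23.2, 13.9 and 15.2 TPM in CK to 34.7, 37.2 and 42.0 in Si. The groups did not overlap. The difference of 1.11 ± 0.28 log2 units (adjusted p = 0.0038, limma) was 0.97, under the threshold, without CK replicate 2. AZF3 had 6.88, 7.81 and 7.35 TPM in CK and 18.4, 14.8 and 13.4 in Si (0.97 ± 0.19, adjusted p = 0.00043, limma), and AT5G43160 again stood higher in Si (5.44 to 6.34 TPM) than in CK (2.27 to 3.43).

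The rest did not pass at 28°C. ZAT10 had 59.2, 38.8 and 73.7 TPM in CK and 71.6, 109 and 178 in Si, where a single pair of samples overlapped (0.998 ± 0.588, adjusted p = 0.16, limma). ZAT8 stood apart at 3.48, 4.92 and 4.23 in CK and 10.02, 5.01 and 11.9 in Si (0.88 ± 0.42, adjusted p = 0.089, limma). Without Si replicate 2, ZAT8 and AZF3 were called too, and the count was 7 of 10. The 95% intervals of ZAT7 (-0.70 to 0.47) and AZF2 (-0.44 to 0.64) excluded a log2 fold change of 1.

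Whether the Si effect itself differed between temperatures was tested as an interaction, called on the adjusted p alone. Between 22 and 25°C the difference over all genes was positive for 52.1%, with a median of 0.02. Relative to 22°C, the effect at 25°C was smaller for 10 of the 10 genes in value, with a median difference of -0.89 log2 units. Of these, 2 were called (AZF1 and AZF3), against 5.36% of all genes called in this direction. AZF3 had a difference of -1.10 ± 0.26 (adjusted p = 0.018, limma), called in each alternative run. AZF1 had -0.85 ± 0.25 (adjusted p = 0.046, limma), a call at the threshold that was lost in 16 of 26 alternatives. The other 8 genes had differences between -1.27 (ZAT10) and -0.13 (ZAT18). In the CK groups AZF1 and AZF3 were higher in value at 25 than at 22°C as described next, while the Si groups differed less.

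Leaving out most single samples ended the call of AZF1. At 22°C these were CK replicates 1 and 3 and Si replicates 2 and 3. At 25°C they were all 3 CK replicates and Si replicates 1 and 3, and at 28°C replicates 1 and 2 of either group. The adjusted p over all alternatives ran from 0.030 to 0.11. With the replicate number as a block, AZF2 was called as well (difference -0.94, adjusted p = 0.016, limma).

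Between 28 and 22°C, 0 of the 10 interactions were called in limma, against 17.2% of all genes called in either direction. Unadjusted p was under 0.05 for 2, ZAT6 (-0.95 ± 0.40) and AZF1 (0.61 ± 0.25), which differed in sign, and the other 8 lay between -0.62 and 0.81. Between 28 and 25°C, a comparison added after the data were seen, AZF1 was called (1.45 ± 0.25, adjusted p = 0.0040, limma), 1 of 10 against 3.27% of all genes called up. ZAT12 (1.42 ± 0.55, adjusted p = 0.13) and AZF3 (0.73 ± 0.26, adjusted p = 0.10) had the next smallest p in limma, and the other 7 lay between -0.26 and 1.21. The 3 interactions share samples, so they are not independent. For ZAT10, ZAT11 and ZAT18, the standard errors of 0.83 to 1.15 leave large differences between temperatures undetectable.

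**Figure D3:**
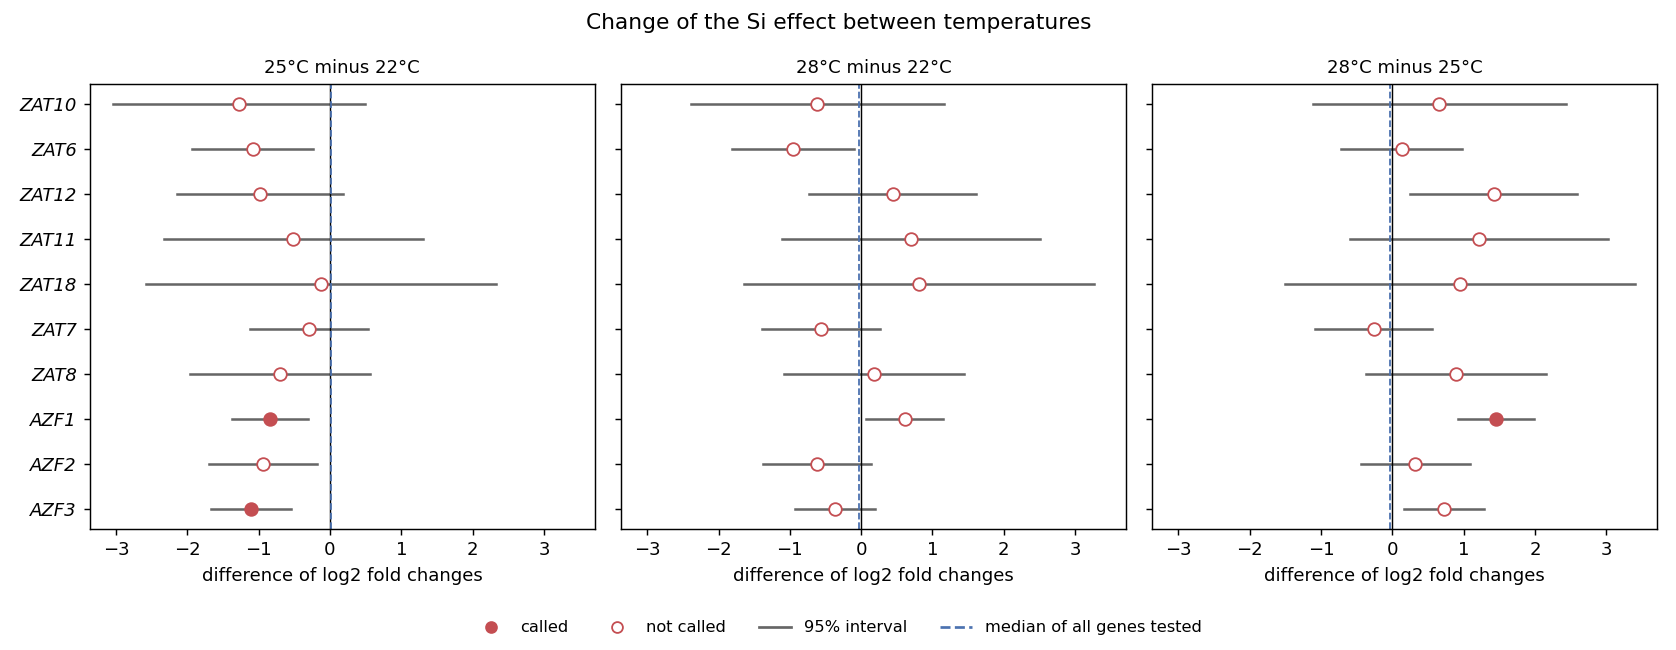
Difference of the Si against CK log2 fold change between temperatures for each gene, with bars for the 95% interval, filled points for called genes and a dashed line for the median of all genes tested. From 22 to 25°C all 10 points lie below 0 and AZF1 and AZF3 are called, and from 25 to 28°C AZF1 is called at 1.45.

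Temperature alone was compared within CK. In CK, 0 of the 10 were called between 25 and 22°C, against 0.569% of all genes called in either direction. AZF1 (2.1, 2.31 and 1.96 TPM at 25°C, log2 fold change 0.73 ± 0.18, adjusted p = 0.018, limma) and AZF3 (7.15, 9.11 and 15.4 TPM, 0.72 ± 0.19, adjusted p = 0.025, limma) passed the adjusted p only. Their values at 25°C were all above those at 22°C. With the adjusted p alone 2 of the 10 passed, against 11.1% of all genes in either direction. The other 8 changed by -0.38 (ZAT7) to 0.45 (ZAT10).

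ZAT7 fell in CK between 22 and 28°C, the 1 of 10 called, against 0.649% of all genes called down. It had 10, 6.6 and 8.3 TPM at 22°C, 5.71, 4.12 and 9.35 at 25°C and 2.34, 3.25 and 5.21 at 28°C. The groups at 22 and 28°C did not overlap, and the 25°C group spanned the gap. The change was -1.05 ± 0.27 on the log2 scale (adjusted p = 0.0055, limma), and it fell short of the threshold without CK replicate 1 at 22°C (-0.92) or CK replicate 1 at 28°C (-0.84). AZF1 passed the adjusted p only (0.56 ± 0.18, adjusted p = 0.016, limma), and the other 8 lay between -0.30 (ZAT6) and 0.41 (AZF2). With the adjusted p alone 2 of the 10 passed, against 49.0% of all genes in either direction.

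With the fungus ZAT7 fell from 10.8, 11.1 and 12.6 TPM at 22°C over 4.53, 7.23 and 9.61 at 25°C to 2.54, 3.61 and 3.24 at 28°C. Again the groups at 22 and 28°C did not overlap (log2 fold change -1.61 ± 0.27, adjusted p = 0.00023, limma). ZAT6 fell too between 22 and 28°C in Si (-1.26 ± 0.28, adjusted p = 0.0019, limma), so that 2 of 10 were called down against 1.37% of all genes. AZF1 rose in Si (1.17 ± 0.18, adjusted p = 8.5e-05, limma), 1 of 10 against 5.27% of all genes called up. With rescaled samples the log2 fold change of AZF1 was 0.98 or 0.86, under the threshold. The other 7 lay between -0.45 (ZAT10) and 0.80 (ZAT18).

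ZAT8, the neighbour of ZAT7, was not called in these comparisons. From 22 to 28°C it changed by 0.22 ± 0.42 log2 units in CK and by 0.41 ± 0.42 in Si (adjusted p = 0.68 and 0.44, limma). Over the 18 samples Pearson's r of the log2 levels of ZAT7 and ZAT8 was 0.01, a description over samples that share groups. Between 25 and 22°C in Si, 0 of the 10 were called, against 2.16% of all genes called in either direction. All 10 values were negative, with a median of -0.49. Over all genes 64.2% were positive, with a median of 0.08. Unadjusted p was under 0.05 for 4 of the 10, while 23.7% of all genes passed even the adjusted p. ZAT6 passed the adjusted p there (-0.93 ± 0.28, adjusted p = 0.028, limma). The other 9 lay between -0.99 (ZAT12) and -0.11 (AZF1).

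**Figure D4:**
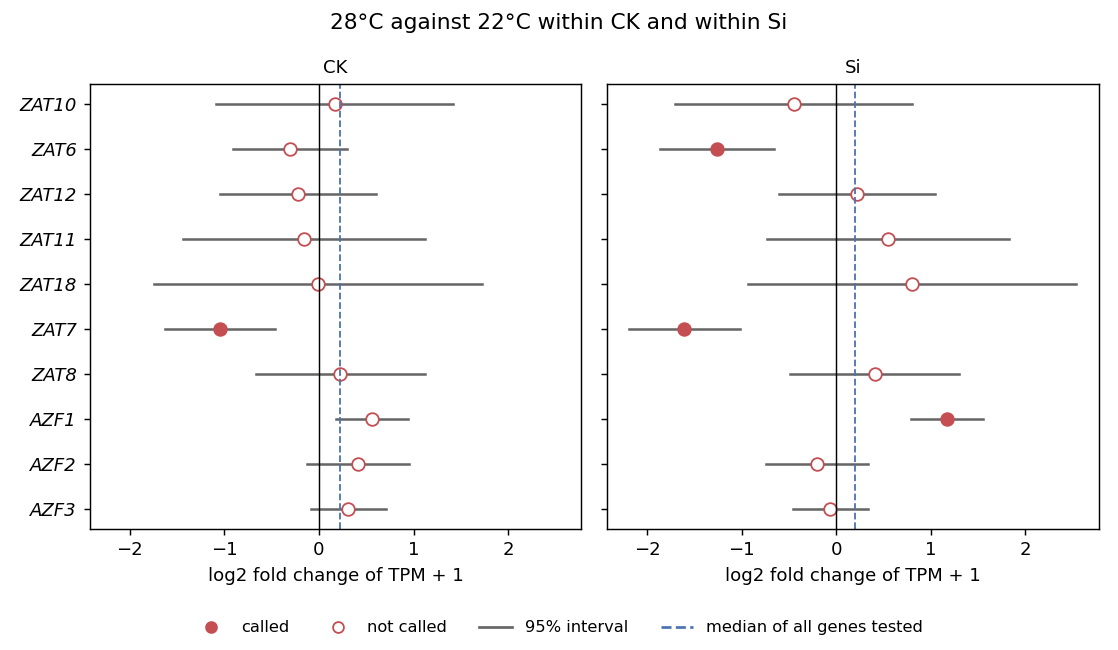
Log2 fold change of 28 against 22°C within CK and within Si for each gene, with bars for the 95% interval, filled points for called genes and a dashed line for the median of all genes tested. ZAT7 is called lower in both panels, and ZAT6 (lower) and AZF1 (higher) are called in Si.

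The family varied unusually between replicates. The residual SD on the log2 scale was 1.11 for ZAT18, 0.82 for ZAT11 and 0.81 for ZAT10, against a median of 0.13 over all genes tested. It was lowest for AZF1 (0.22) and AZF3 (0.25), where it exceeded that of 77.4% and 81.6% of all genes tested. For deviations from the group means, the median r over the 45 pairs of genes was 0.50. Of these pairs, 22 had an r above 0.5 over the 18 samples, led by ZAT11 with ZAT18 (0.87) and ZAT8 with ZAT12 (0.86). The share among pairs of other genes was not counted. AZF2 passed 0.5 with 8 of the other 9 genes, ZAT7 with 2 and AZF3 with 0. The lowest values were those of AZF3 with AZF1 (-0.37) and with ZAT18 (-0.15).

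Some samples stood apart across the family. At 25°C, 0 of the 10 genes were above the group mean in Si replicate 1 (mean deviation -0.68 log2 units) and in CK replicate 1 (-0.26). Si replicate 2 at 28°C had 1 of 10 above it (-0.33) and Si replicate 3 at 22°C 3 of 10 (-0.41), whereas 9 of the 10 were above it in Si replicate 3 at 25°C (0.46), CK replicate 3 at 25°C (0.50) and Si replicate 3 at 28°C (0.49). Si replicate 2 at 22°C was high in 7 of the 10 (0.58), through ZAT11 and ZAT18 above all. Replicate 1 was below the group mean on average in 6 of 6 groups. Over all genes tested, the mean deviation in these 8 samples was between -0.02 and 0.04.

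Fast stress-responsive genes outside the family deviated likewise in some of the same samples, and little in others. For 20 rapidly induced regulators of transcription and RNA, the mean deviation was -0.61 in Si replicate 1 and -0.73 in CK replicate 1 at 25°C, 0.53 in Si replicate 3 at 25°C, 0.81 in CK replicate 3 at 25°C and 0.34 in Si replicate 3 at 28°C. For touch and wounding genes it was -0.63, -0.47, 0.43, 0.60 and 0.50 in the same order. Si replicate 2 at 22°C had 0.08 and 0.36 on these lists. The family's low samples Si replicate 3 at 22°C and Si replicate 2 at 28°C had -0.12 and 0.01, and -0.06 and -0.26. By number, touch and wounding genes were below the mean in replicate 1 and above it in replicate 3 in 6 of 6 groups each, and the rapidly induced genes in 5 of 6 each. The part of these samples' handling or harvest in the values of the family was not tested.

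**Figure D5:**
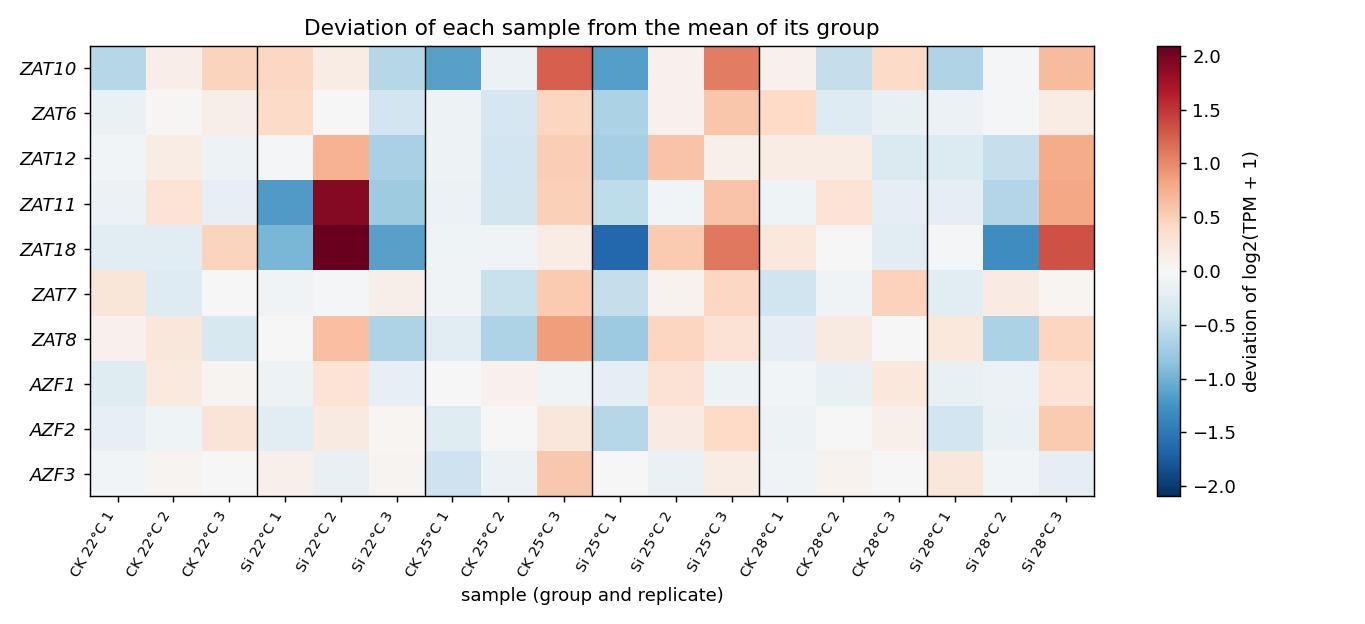
Deviation of log2(TPM + 1) of each gene in each sample from the mean of its group, in log2 units from blue (below) to red (above), with samples ordered by group and replicate. Replicate 1 of Si and of CK at 25°C is above the mean for 0 of 10 genes, and CK replicate 3 and Si replicate 3 at 25°C are above it for 9 of 10.

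By the level itself, each gene had close companions outside the family. Over the 18 samples the log2 level of ZAT10 was most like that of ERF5, an ethylene response factor (r = 0.96), and AR781 (0.95). AZF3 was most like MYB51, a regulator of indole glucosinolates (0.92), with BAK1, a co-receptor of immune receptors, among its first 3 (0.90). ZAT8 was most like AOX1D, an alternative oxidase (0.84). ZAT18 was closest to AT5G27765 and to BHLH92 (both 0.97), and ZAT11 to AT5G44990 (0.97) with WAKL10, a wall-associated kinase-like gene, among its first 3 (0.97). For the other genes the first companions were AT2G36780 for ZAT6 (0.95), VFB3 for ZAT7 (0.90) and AT2G23270 for ZAT12 (0.95). They were AT2G38870 for AZF1 (0.94) and AT1G68440 for AZF2 (0.90). These values describe 18 samples that share groups and have no test.

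Of 14 further ZAT-type C2H2 genes, 7 passed the filter, and their median differences, by rising temperature, were 0.04, 0.29 and 0.34 log2 units. Of these 7, 0 were called at any temperature in limma, where 8%, 9.43% and 7.95% of all genes were called up, so a count of 0 is near the background. At 28°C the adjusted p alone was passed upwards by 3 of the 7, against 43.5% of all genes, led by AT2G28710 (0.96 ± 0.24).

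Genes known to act ahead of the family were called in part. Of 12 kinases, oxidases and transcription factors, 3 rose at each temperature and 0 fell, against 8%, 9.43% and 7.95% of all genes called up. They were at 22°C RBOHD, the NADPH oxidase of the oxidative burst (2.47 ± 0.15), AGC2-1, a kinase induced by oxidants (1.94 ± 0.60), and MPK3, a stress-activated MAP kinase (1.79 ± 0.13). At 25°C HSFA2, a heat shock factor (1.77 ± 0.39), AGC2-1 (1.73 ± 0.60) and RBOHD (1.59 ± 0.15) rose, and at 28°C AGC2-1 (3.14 ± 0.60), RBOHD (1.60 ± 0.15) and MPK3 (1.02 ± 0.13). Across samples the deviations of ZAT18 resembled those of AGC2-1 (r = 0.97).

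Among reported targets and partners of the ZAT and AZF proteins, 12 of 19 passed the filter. Of these 12, 6, 5 and 6 rose at 22, 25 and 28°C, against 8%, 9.43% and 7.95% of all genes, and 0 fell. Their medians were 1.09, 0.78 and 0.96. LTI78, a cold and drought protein, rose by 1.69 ± 0.17, 1.63 ± 0.17 and 1.37 ± 0.17. PR5, an antimicrobial protein of the salicylic acid response, was among the largest rises at 25°C (2.43 ± 0.35) and 28°C (1.88 ± 0.35). APX1, the cytosolic ascorbate peroxidase, rose by 1.42 ± 0.09 at 25°C. SAUR63, a small auxin-induced gene, rose by 1.66 ± 0.25 at 22°C.

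Many other fast genes also rose at 22°C. Of 20 rapidly induced regulators tested, 15 rose at 22°C, led by RRTF1 (2.94) and WRKY33 (2.78), 0 rose and 1 fell at 25°C (DREB26, -1.41), and 4 rose at 28°C, led by WRKY53 (2.09). Of all genes 8%, 9.43% and 7.95% were called up and 1.34%, 2.69% and 1.72% down. The medians of the list were 1.88, -0.07 and 0.60. Summed over the list, CK samples had 369 to 724 TPM and Si samples 1720 to 1949 TPM at 22°C, against 390.4 to 1390 and 346 to 960.0 at 25°C and 521 to 817 and 605 to 1022 at 28°C.

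Touch and wounding genes, which handling induces, were called in part. Of 8 listed and 7 tested, 6 rose at 22°C, led by ACS6, an enzyme of ethylene synthesis (3.02), 2 rose and 1 fell at 25°C, and 3 rose and 1 fell at 28°C, beside the same shares of all genes. The gene that fell at 25 and 28°C was TCH4, a cell wall enzyme (-2.87 and -2.85). Their sum was 584 to 848 TPM in CK and 1523 to 2394 in Si at 22°C, 576 to 1288 and 277 to 573 at 25°C, and 434 to 773 and 510 to 701 at 28°C. Of 5 morning clock genes, 3 were tested and 1, PRR7, fell at each temperature (-1.63, -2.09 and -1.38). The median of the 3 was -0.58, -0.13 and 0.35. The 5 evening clock genes were all tested, and 0 were called at any temperature. Their medians were -0.32, -0.58 and -0.32. At each temperature 1 of the 5 was positive, against 74.0%, 71.6% and 71.3% of all genes. Of 12 ABA response genes, 8 were tested, and 0, 1 and 1 rose and 1, 1 and 2 fell at 22, 25 and 28°C, where 8%, 9.43% and 7.95% of all genes rose and 1.34%, 2.69% and 1.72% fell. The part of touch, wounding or the time of harvest in the values of the ZAT and AZF genes was not tested.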

How the data were processed

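The authors sequenced total RNA of the 18 samples and deposited 1 table of TPM values. The paper describes mapping of clean reads to TAIR10 and quantification with RSEM; the labels name SeqPrep, Sickle, HISAT2 and StringTie, without versions. TPM sums to the same total in each sample, so depth is unknown and no counting interval is given. The number of genes at 1 TPM or more ranged from 17531 to 19509 per sample. The 10 genes and the comparison lists were chosen with earlier results of these data known.

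From the deposited TPM, log2(TPM + 1) was taken for the 20044 genes that reached 1 TPM in 3 or more samples. A model of 6 groups was fitted with limma 3.58.1 in R 4.3.3, using the variance trend and 12 residual degrees of freedom. Fold changes on this scale understate the change of low genes. All tests were two-sided, with Benjamini-Hochberg adjustment over all genes. By the rule, all 10 genes were reported in every comparison. Those that did not pass the adjusted p in a comparison of temperatures are mostly given by their range. Up to 4 called genes are named per list and comparison. The 3 most similar genes by Pearson's r were taken for each gene. By level the first of them is named for all 10 genes, and the rest only in part. The fit was tested on simulated data. Sequences and coordinates come from RefSeq, assembly TAIR10.1, read with Python 3.11.15 and Biopython 1.88. Symbols such as ZAT8 and ZAT18 that RefSeq lacks follow the list of genes studied. Alternatives were 2 other pseudocounts, 2 filters, a fit of the compared groups only, 2 rescalings, a replicate block, no fold threshold and each sample left out.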

Additional observations from a re-analysis of the deposited data

Results flagged for a closer look

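The effect of the fungus differed between temperatures for AZF1 and AZF3, by the interaction test of limma. For AZF1 the log2 fold change of Si against CK was 0.87 at 22°C and 0.02 at 25°C, a difference of -0.85 (adjusted p = 0.046), with Si above CK in all samples at 22°C and overlapping groups at 25°C. For AZF3 it was 1.35 at 22°C and 0.25 at 25°C, a difference of -1.10 (adjusted p = 0.018), and the CK group at 25°C contained the sample CK replicate 3 at 15.4 TPM against 7.15 and 9.11 in the other two. Between 25 and 28°C the effect on AZF1 differed by 1.45 (adjusted p = 0.0040), in a comparison added after the data were seen.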

How the results depend on the processing

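Rescaling moved the median of all genes from 0.26, 0.26 and 0.22 at 22, 25 and 28°C to 0.01, 0.00 and 0.00 (median of ratios) or -0.03, -0.01 and -0.04 (quantiles), and that of the 10 genes from 1.29, 0.25 and 1.05 to 1.03, -0.02 and 0.81 or 0.93, -0.08 and 0.92. Genes called up made up 85.7%, 77.8% and 82.2% of all calls as deposited, 66.3%, 57.5% and 66.1% with median of ratios, and 62.3%, 53.7% and 60.5% with quantiles. Of the 20044 genes tested, those called up numbered 1603, 1891 and 1593 as deposited at 22, 25 and 28°C. They numbered 987, 1142 and 1035 with median of ratios, and 785, 954 and 905 with quantiles. The count of 5 genes called at 22°C was 3 with median of ratios (ZAT10 and ZAT12 lost) and 2 with quantiles (AZF3 lost as well), 4 without the filter (ZAT10 lost), 4 with only the groups compared (ZAT11 lost) and 6 with either other pseudocount (AZF1 gained). The 5 called at 28°C were 3 with quantiles (ZAT6 and ZAT18 lost), 4 with median of ratios (ZAT6 lost), 4 without the filter (ZAT18 lost) and 6 with either other pseudocount (AZF3 gained). The count of 0 at 25°C was 2 with a pseudocount of 0.1 TPM, 1 with 0.5 TPM, 1 with only the groups compared and 1 without the fold threshold. The 2 interactions at 25°C relative to 22°C were 1 without the filter, 1 with a filter at 5 TPM and 1 with only the groups compared. In CK, the count between 25 and 22°C was 2 without the fold threshold, against 11.1% of all genes, and 1 with a pseudocount of 0.1 TPM. Between 28 and 22°C in CK it was 2 without the fold threshold, against 49.0% of all genes. In Si, the count between 25 and 22°C was 1 without the fold threshold, against 23.7% of all genes, and 1 with median of ratios.

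Leaving out single samples gave 2 to 5 called genes at 22°C, 0 to 3 at 25°C and 4 to 7 at 28°C. For the interactions it gave 1 to 2 at 25°C relative to 22°C, 0 to 1 at 28°C relative to 22°C and 1 to 2 at 28°C relative to 25°C. Within CK it gave 0 between 25 and 22°C and 0 to 1 between 28 and 22°C, and within Si 0 to 2 and 3 to 5. The lowest count at 22°C came without Si replicate 2 and the highest at 25°C without Si replicate 1.

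Values that changed sign all belonged to genes that were not called. At 25°C with median of ratios and with quantiles, ZAT7 was -0.11 and -0.23, ZAT12 -0.0054 and -0.085, AZF1 -0.18 and -0.40, and AZF3 -0.026 and -0.072. AZF2 at 28°C was -0.13 and -0.22. With single samples left out, the values at 25°C ran from -0.087 to 0.42 for ZAT7, -0.34 to 0.43 for ZAT8, -0.23 to 0.97 for ZAT10, -0.036 to 0.61 for ZAT12, -0.13 to 0.12 for AZF1 and -0.43 to 0.075 for AZF2. At 28°C they ran from -0.32 to 0.12 for ZAT7 and from -0.18 to 0.30 for AZF2.

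The replicate numbers were not treated as pairs: over all genes tested, 8 of 45 correlations between equal numbers were above 0.1, in a range from -0.07 to 0.18. The 10 genes, however, were on average below the group mean in replicate 1 in 6 of 6 groups and above it in replicate 3 in 5 of 6. The replicate block moved the interaction at 25°C relative to 22°C from 2 to 3 called genes and changed no other count. The causes of these changes were not tested. With 3 samples per group and unknown depth, even large differences in ZAT10, ZAT11 and ZAT18 can go undetected.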
